A study of Mus musculus with 9 samples.

Results

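Iron and heme handling was followed here through 9 genes, taken by symbol from the 15434 genes of the deposited table: Hmox1 and Blvrb of heme breakdown, the ferritin subunits Fth1 and Ftl1, the iron exporter Slc40a1, and Trf, Tfrc, Slc11a2 and Slc11a1 of iron import. Macrophages were sorted from testis, epididymis and brain of untreated C57BL/6J mice and used without culture, with 3 libraries per organ and 9 in all. After 40 minutes of enzymatic digestion and a Percoll step, erythrocytes were lysed and live CD45+ CD11b+ F4/80+ cells negative for Ly6c and CD11c were collected. The brain libraries are labelled microglia, the resident macrophages of the brain. The library kit, started from 10 ng of RNA, does not mark the strand. The series concerns the embryonic origin of testicular and epididymal macrophages, with microglia beside them. The labels give mouse number 1 to all testis libraries, 2 to all epididymis libraries and 3 to all brain libraries, so organ and mouse number cannot be told apart. The p-values below measure only the spread between libraries, which may be technical. The protocol also speaks of pooling suspensions of testes and epididymides in a tube, and the organ labels were used as they stand.

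Macrophages take up worn red blood cells and their hemoglobin. Heme oxygenase opens the heme ring and releases iron, which is stored inside ferritin or leaves the cell through ferroportin, the product of Slc40a1. Iron bound to transferrin enters through the transferrin receptor, and divalent metal transporters move it out of endosomes and phagosomes. Iron regulatory proteins bind a short RNA hairpin, the iron-responsive element. In a 5′ UTR this binding blocks translation, and in the 3′ UTR of the transferrin receptor mRNA it protects the transcript from decay.

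Values are normalised read counts: reads per gene divided by a size factor per library. Libraries held 2727092 to 4458688 reads assigned to genes, and 1 read was worth 0.808 to 1.11 normalised reads. The sort markers Ptprc (CD45), Itgam (CD11b) and Adgre1 (F4/80) were detected in all 9 libraries, with lowest values of 1360, 283 and 41.7 respectively. A list of 11 general macrophage genes was detected in full in each organ, but its summed level was 18797 to 20240 in testis, 33722 to 37583 in epididymis and 50408 to 56220 in brain. The microglia list, with 9 of its 10 genes in the table, summed to 27690 to 30406 in brain, 4166 to 5958 in epididymis and 960 to 1559 in testis. In bulk samples, fewer cells of a type and less RNA per cell cannot be told apart. Testis replicate 1 and epididymis replicate 3 had the highest scores on principal component 3 (99.1 and 97.2), which held 14.2% of the variance. Epididymis replicate 2 lay about as far out on the other side (-94.6). Testis replicate 1 also lay farthest out on component 1 (-155), and epididymis replicate 3 on component 2 (-157). Below, testis replicate 1 and epididymis replicate 3 are called the libraries that stood apart.

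The 4 members whose UTRs match the core of an iron-responsive element, in the strict form given below, are shown first. This order was chosen because the hairpin links storage, export and uptake to the same regulators. The search was for CNNNNNCAGTGN followed by NNNNN, in which the 5 bases on either side of the loop pair and at most 1 pair is G with T. It was run along the sense strand of GENCODE M21 protein-coding transcripts on GRCm38. Such a match lies in a UTR of 69 of 21877 protein-coding genes, or 0.315%. Capitals mark the unpaired C and the CAGTGN loop, each run is 17 bases and reads 5′ to 3′ along the transcript, and U of the RNA is written as T. The Fth1 element lies in the 5′ UTR at chr19:9982738-9982754 on the plus strand, and that of Ftl1 in the 5′ UTR at chr7:45459785-45459801 on the minus strand. The Slc40a1 element lies in the 5′ UTR at chr1:45925471-45925487 on the minus strand. The 3′ UTR of Tfrc holds 4 such matches on the plus strand, at chr16:32631225-32631241, chr16:32631604-32631620, chr16:32631669-32631685 and chr16:32631716-32631732.
Fth1: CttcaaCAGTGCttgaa
Ftl1: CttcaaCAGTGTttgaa
Slc40a1: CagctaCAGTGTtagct
Tfrc element 1: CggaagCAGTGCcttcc
Tfrc element 2: CgggagCAGTGTcttcc
Tfrc element 3: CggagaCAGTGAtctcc
Tfrc element 4: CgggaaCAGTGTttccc
The ferritin elements have the same stem letters and differ in the last base of the loop. For the other 5 members, no match of this strict, paired form lies in the UTRs of the transcripts searched. An element whose stem pairs less fully, or holds another unpaired base, would be missed by this search. Further elements in any member were therefore not excluded. A match is a description of the sequence, and translation was not measured.

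**Figure D1:**
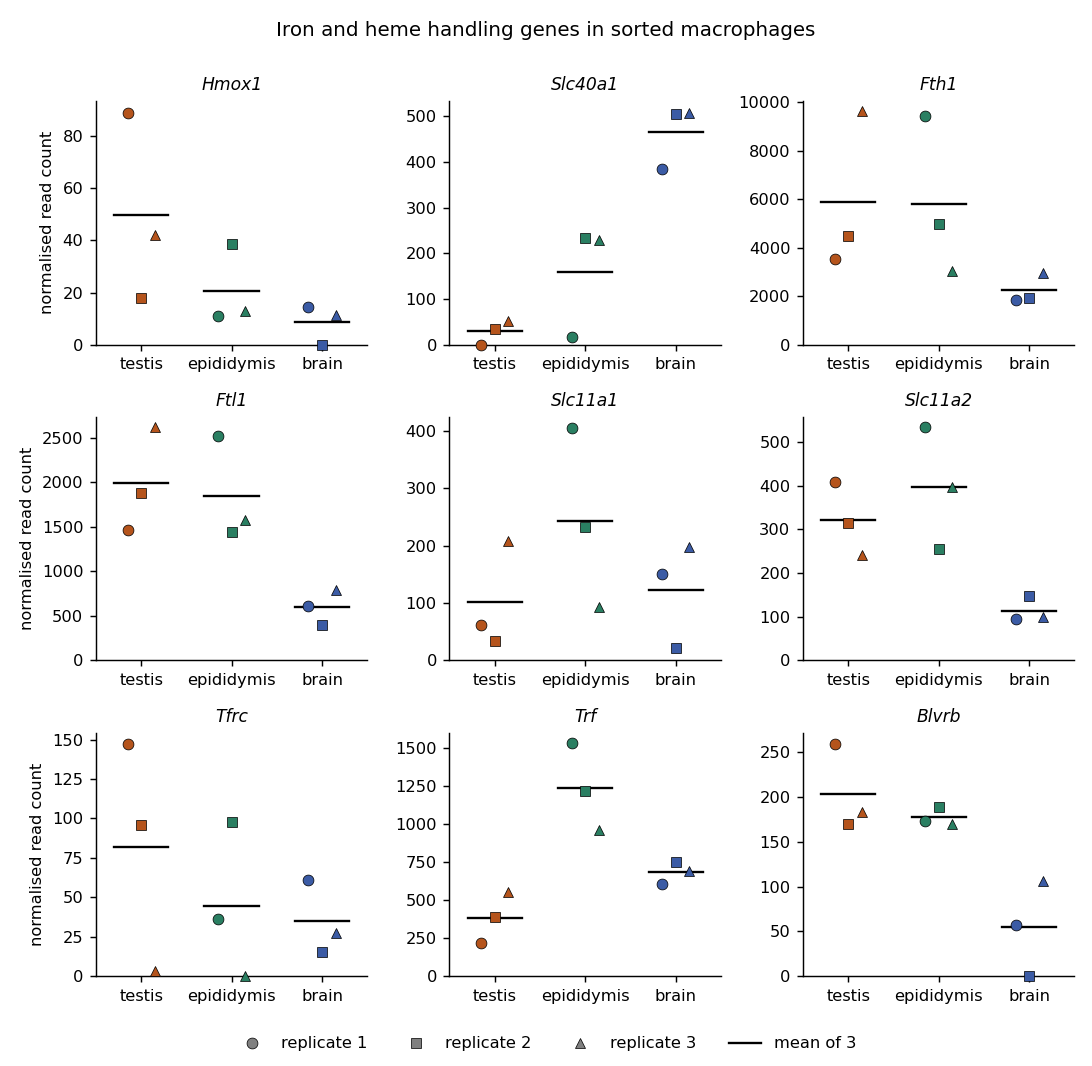
Normalised read counts (vertical axes, from 0) of the 9 genes in each of the 9 libraries, by organ, with a line at the mean of 3 libraries. The brain libraries hold the lowest 3 values of Fth1, Ftl1 and Slc11a2 and the highest 3 of Slc40a1, and for Tfrc and Slc11a1 the organs overlap.

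All 9 genes reached the level needed for testing, which was 10 or more in 3 or more libraries, as did 11766 genes of the table. Differences were tested with limma on log2(value + 1), with p-values adjusted by Benjamini-Hochberg over all tested genes and called below 0.05. On this scale the pseudocount understates changes between low values above 0, while a single library at 0 can make the log2 difference larger than the ratio of means, as for Slc40a1, Blvrb and Hmox1 between testis and brain. In a moderated F test among organs, 5 of 9 members were called (Slc40a1, Fth1, Ftl1, Slc11a2 and Trf), where 11.4% of all tested genes were. Between testis and epididymis 1 member was called, Trf, lower in testis, against 4.39% of all tested genes (2.49% higher and 1.9% lower in testis). Between testis and brain 4 were called, against 11.7% of genes (6.82% higher and 4.83% lower in testis): Fth1, Ftl1 and Slc11a2 were higher in testis and Slc40a1 was lower. Between epididymis and brain 2 were called, Ftl1 and Slc11a2, both higher in epididymis, against 4.79% of genes (2.99% higher and 1.8% lower in epididymis). The share of members called exceeded that of all genes in each of these comparisons, on few genes. The members were chosen with earlier results of these data known, so this excess is a description only. When limma ran without a variance trend, no member was called in any of them. Counted by libraries that did not overlap, with no test, 1 member stood apart between testis and epididymis, lower in testis, where 19.8% of all genes stood apart and 8.8% in that direction. Between testis and brain 5 members stood apart with testis higher and 2 with testis lower, where 30.8% of all genes did, 15.9% higher and 14.9% lower. Between epididymis and brain 5 stood apart with epididymis higher and 1 with epididymis lower, where 22.0% of all genes did, 10.5% higher and 11.5% lower. The median log2 difference of the members was 0.04 between testis and epididymis, 1.29 between testis and brain and 1.26 between epididymis and brain. Over all tested genes these medians were 0.10, -0.07 and -0.13. Both brain comparisons use the same 3 brain libraries and are not independent of each other.

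Over the whole table, 293 genes were higher and 223 lower in testis than in epididymis, and 803 higher and 568 lower in testis than in brain. Scaling each library to the same total turned these splits to 227 and 307, and to 654 and 772, and moved the median over all genes to -0.05 and -0.29. Quantile normalisation gave a split of 223 and 256 between testis and epididymis. Of the 7 member calls, that of Fth1 between testis and brain was lost under both rescalings and the other 6 were kept. Under quantile normalisation Fth1 was called between epididymis and brain in its place (log2 1.40, adjusted p = 0.036 in limma).

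**Figure D2:**
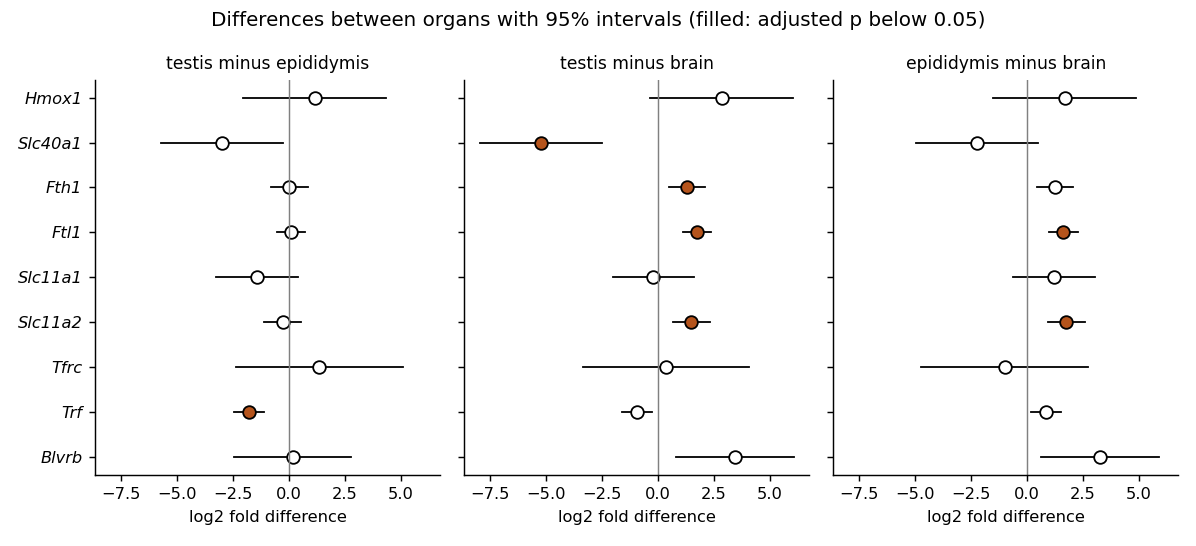
Log2 differences of the 9 genes (horizontal axis, log2 scale) between organs, with 95% intervals from limma and filled points for adjusted p below 0.05. In the comparison of testis with brain, Ftl1 (1.75), Slc11a2 (1.49) and Fth1 (1.29) lie to the right of 0 and Slc40a1 (-5.23) to the left.

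The ferritin genes were the most abundant members, and both had their lowest values in brain. Fth1 (chr19:9980598-9985098, plus strand) encodes the heavy chain, which oxidises iron on entry into the ferritin shell. Its values were 3546, 4502 and 9661 in testis, 9430, 4997 and 3044 in epididymis and 1832, 1945 and 2938 in brain. Every testis and epididymis library lay above every brain library, while testis and epididymis overlapped. The mean was 5903 ± 3290 in testis, 5823 ± 3273 in epididymis and 2238 ± 609 in brain (SD, n = 3 each). Fth1 was 2.64-fold higher in testis than in brain (log2 difference 1.29, SE 0.38, adjusted p = 0.039 in limma). The 2.60-fold difference between epididymis and brain did not pass the test (log2 1.26, SE 0.38, adjusted p = 0.078 in limma). It passed in 4 of 20 alternatives: a pseudocount of 10 (0.026), quantile normalisation (0.036), without epididymis replicate 3 (0.037) and without the libraries that stood apart (0.044); the largest adjusted p was 0.38. Between testis and epididymis the log2 difference was 0.04, with a 95% interval of -0.78 to 0.85.

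The Fth1 call between testis and brain held in 11 of 20 alternative settings, with a largest adjusted p of 0.25 when limma ran without a variance trend. It was lost without testis replicate 3, the library with the highest value (log2 0.87, adjusted p = 0.19), without testis replicate 2 (0.081), epididymis replicate 2 (0.063), brain replicate 1 (0.15) or brain replicate 2 (0.15), and in DESeq2 on recovered reads (0.088).

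Ftl1 (chr7:45457944-45459884, minus strand) encodes the light chain, which favours mineral formation inside the shell. Its values were 1468, 1886 and 2625 in testis, 2524, 1448 and 1573 in epididymis and 615, 396 and 790.1 in brain. The highest brain library lay below the lowest library of the other organs, and testis and epididymis overlapped. Means were 1993 ± 586 in testis, 1848 ± 588 in epididymis and 600.2 ± 198 in brain (SD, n = 3 each). Ftl1 was 3.32-fold higher in testis than in brain (log2 1.75, SE 0.30, adjusted p = 0.00098 in limma) and 3.08-fold higher in epididymis than in brain (log2 1.63, SE 0.30, adjusted p = 0.0041 in limma). Each call was kept in 19 of 20 alternatives and in all 9 that left out a library, and was lost without the variance trend, at adjusted p of 0.058 and 0.13. In any comparison of 2 organs, 3 of the 9 leave-outs remove a library of the organ not compared. In limma these cannot alter the log2 difference, only the shared spread and so the adjusted p.

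Per 10000 reads of a library, Fth1 and Ftl1 together took 14.3, 17.7 and 34.5 in the testis libraries, 37.8, 20.7 and 14.4 in those of epididymis and 8.36, 7.70 and 11.9 in those of brain. The ratio of Fth1 to Ftl1 values within a library, which no library scaling can alter, was 2.42, 2.39 and 3.68 in testis, 3.74, 3.45 and 1.93 in epididymis and 2.98, 4.92 and 3.72 in brain. The organs overlapped in this ratio. Two-sided exact permutation tests gave p = 0.9 for testis against epididymis, 0.2 for testis against brain and 0.5 for epididymis against brain, where 0.1 is the smallest p that 3 against 3 libraries can give. These tests could therefore not pass 0.05. The summed share, in contrast, did not overlap between brain and the other organs.

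Testis replicate 3 had the highest Fth1 and Ftl1 values of its organ and also the highest sum of the Leydig cell list (7 of 8 genes in the table), 3752 against 1432 and 2032 in the other testis libraries, with 29.1 to 201 in epididymis and 75.8 to 105 in brain. Epididymis replicate 1, the highest of its organ for both, had a Leydig sum of 62.7. The dissociation stress list (19 of 20 genes) summed to 198398 to 207587 in testis, 72970 to 77524 in epididymis and 88256 to 143649 in brain. The part of either list in the ferritin levels was not tested. Processed pseudogenes of both ferritin genes are annotated, Fth-ps2 and Ftl1-ps2 among them, and reads shared with them could have been counted either way. Exons of Ftl1 also overlap Gm10252 on the opposite strand and Gm22133 on the same strand.

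**Figure D3:**
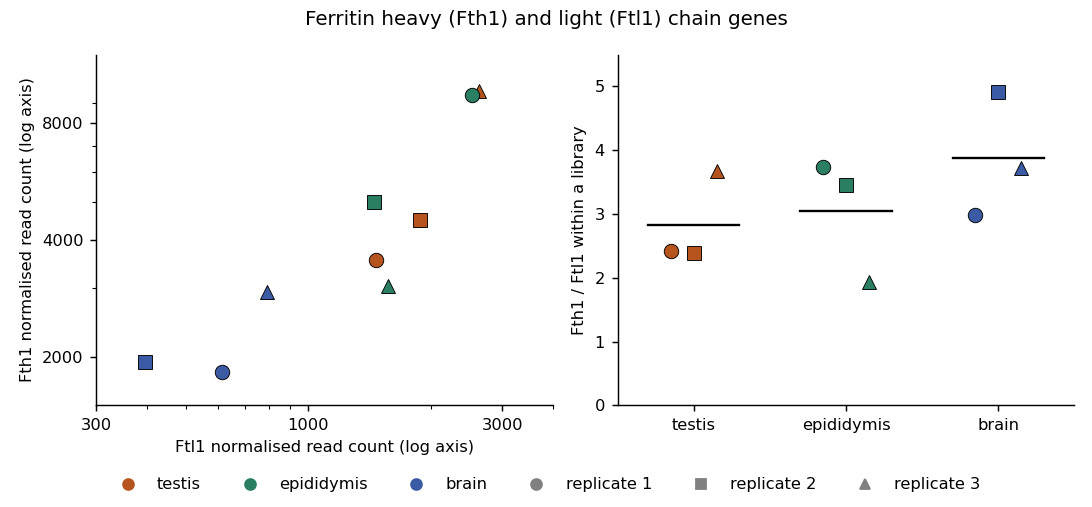
Ferritin in each of the 9 libraries: the normalised read count of Fth1 against that of Ftl1 (log axes), and the ratio of Fth1 to Ftl1 values within the library. Brain libraries lie lowest for both genes, and the ratio overlaps between organs (1.93 to 4.92 over all 9).

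Slc40a1 (chr1:45908068-45926523, minus strand) encodes ferroportin, the cellular iron exporter, and had its highest values in brain. Its values were 0, 34.7 and 52.1 in testis, 16.4, 234 and 230 in epididymis and 385, 506 and 508 in brain. All brain libraries lay above all others, epididymis replicate 1 fell within the testis range, and testis replicate 1 had no read, where 3 reads would be worth 3.11. Means were 29.0 ± 26.6 in testis, 160 ± 124 in epididymis and 467 ± 70.4 in brain (SD, n = 3 each). The brain mean was 16.1-fold above that of testis (log2 of testis minus brain -5.23, SE 1.28, adjusted p = 0.014 in limma). Against epididymis, brain was 2.92-fold higher in the mean without passing the test (log2 of epididymis minus brain -2.24, SE 1.28, adjusted p = 0.42 in limma), although the libraries did not overlap. Testis and epididymis differed by -2.98 in log2 (SE 1.28, adjusted p = 0.24 in limma).

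The Slc40a1 call between testis and brain was kept in 16 of 20 alternatives. It was lost without brain replicate 1 (adjusted p = 0.055), 2 (0.066) or 3 (0.06), and without the variance trend (0.11). Leaving out testis replicate 1, the library at 0, brought the log2 difference to -3.41 with an adjusted p of 0.033. Red pulp macrophages of the spleen are known for high ferroportin. A list for them and for other iron-recycling macrophages had 4 of its 6 genes in the table. It summed to 137 to 608 in testis, 328 to 424 in epididymis and 34.7 to 142 in brain. Its sum was thus lowest in the organ with the highest Slc40a1, apart from 1 overlap between testis and brain. Spic, a gene of that list, stood at 0, 13.7 and 15.4 in testis and 43.6, 94.7 and 59.3 in epididymis, with no read in brain. Most of each sum therefore came from the other genes of the list.

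Heme breakdown was represented by genes of low to moderate level, and no call was made for either. Hmox1 (chr8:75093621-75100589, plus strand) encodes heme oxygenase 1, the inducible enzyme that opens the heme ring. Its values were 89.0, 17.8 and 41.9 in testis, 10.9, 38.5 and 12.9 in epididymis and 14.6, 0 and 11.6 in brain. Testis lay above brain without overlap, and epididymis overlapped both. Over 3 libraries each, the values rest on 157 reads for testis, 65 for epididymis and 29 for brain. The log2 difference between testis and brain was 2.84 (SE 1.50, adjusted p = 0.28 in limma), with a 95% interval of -0.36 to 6.05. At this depth and spread, neither a difference between organs nor its absence was detectable.

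Blvrb (chr7:27447978-27466144, plus strand) encodes a flavin reductase that also acts on some forms of biliverdin. Its values were 259, 170 and 183 in testis, 173, 189 and 170 in epididymis and 57.4, 0 and 107 in brain. All testis and epididymis libraries lay above all brain libraries. Means were 204 ± 48.1, 177 ± 9.89 and 54.7 ± 53.4 (SD, n = 3 each) in that order. The log2 differences from brain were 3.45 for testis (SE 1.23, adjusted p = 0.09 in limma) and 3.27 for epididymis (SE 1.23, adjusted p = 0.17 in limma), neither of them called. The brain library at 0 set much of this size: without brain replicate 2 the difference between testis and brain was 1.34 (adjusted p = 0.14). It passed the test with a pseudocount of 10 (0.024) and without brain replicate 3 (0.031), and over all 20 alternatives the adjusted p reached 0.28.

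Hmox1 and Blvrb were both highest in testis replicate 1. The hemoglobin genes Hba.a2 and Hbb.b1 together stood at 608 in that library, 33.1 and 2.56 in the other testis libraries, 0, 0 and 84.1 in epididymis and 26.4, 14.5 and 3.56 in brain. Without testis replicate 1 together with epididymis replicate 3, an alternative chosen after seeing the data, the Blvrb difference between testis and brain was 3.26. The part of erythroid RNA in these levels was not tested.

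Import genes did not move as a group. Trf (chr9:103204001-103230444, minus strand) encodes transferrin, the iron carrier of plasma. Its values were 216, 389 and 551 in testis, 1534, 1217 and 960 in epididymis and 606, 751 and 693 in brain, and no organ overlapped another. Means were 385 ± 167, 1237 ± 288 and 683 ± 73.3 (SD, n = 3 each) in that order. Trf was 3.21-fold lower in testis than in epididymis (log2 -1.75, SE 0.32, adjusted p = 0.0045 in limma). Neither the difference between testis and brain (log2 -0.92, SE 0.32, adjusted p = 0.075 in limma) nor that between epididymis and brain (log2 0.83, SE 0.32, adjusted p = 0.17 in limma) passed.

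The Trf call was kept in 19 of 20 alternatives, and in all 9 that left out a library, and was lost without the variance trend (0.12). The difference between testis and brain passed when each library was scaled to the same total (0.023), after quantile normalisation (0.047) and without testis replicate 3 (0.027), and its adjusted p reached 0.29 over the alternatives. Oligodendrocytes, Sertoli cells and epithelia are known sources of transferrin. The epididymal epithelium list (10 of 11 genes in the table) summed to 497 to 588 in epididymis and 0 to 39.3 in testis, and all its genes were at 0 in brain, where Trf stood at 606 to 751. The oligodendrocyte list (6 of 11) summed to 205 to 712 in testis, 144 to 379 in epididymis and 226 to 414 in brain. The Sertoli list (5 of 11) summed to 248 to 531, 561 to 680 and 1139 to 2236 in that order, most of it Ctsl, which macrophages express as well. The part of these cells in the Trf level was not tested.

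Tfrc (chr16:32608920-32632794, plus strand) encodes transferrin receptor 1. Its values were 147, 96.1 and 3.42 in testis, 36.4, 97.5 and 0 in epididymis and 61.0, 15.6 and 27.6 in brain. The 3.42 in testis replicate 3 is 4 reads, and all organs overlapped. The 3 log2 differences had limma standard errors of 1.75 and adjusted p of 0.73 to 0.93. The interval of the difference between testis and brain ran from -3.35 to 4.09, so a large difference in either direction remained within it.

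Slc11a2 (chr15:100387898-100425072, minus strand) encodes DMT1, which moves ferrous iron out of endosomes. Its values were 408, 314 and 242 in testis, 535, 255 and 398 in epididymis and 93.8, 147 and 99.5 in brain. All brain libraries lay below all others, and testis and epididymis overlapped. Means were 321 ± 83.2, 396 ± 140.2 and 114 ± 29.3 (SD, n = 3 each) in that order. Slc11a2 was 2.83-fold higher in testis than in brain (log2 1.49, SE 0.39, adjusted p = 0.02 in limma) and 3.49-fold higher in epididymis than in brain (log2 1.76, SE 0.39, adjusted p = 0.014 in limma).

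The Slc11a2 call between testis and brain was kept in 14 of 20 alternatives and lost without testis replicate 1 (0.079) or 2 (0.061), without brain replicate 1 (0.081) or 3 (0.063), without the variance trend (0.087) and without the libraries that stood apart (0.086). That between epididymis and brain was kept in 15 of 20 and lost without epididymis replicate 1 (0.08) or 3 (0.053), without brain replicate 1 (0.066), without the variance trend (0.095) and without the libraries that stood apart (0.056). Exons of Slc11a2 overlap Gm5475 on the opposite strand, and those of Trf overlap Gm20425 on the same strand.

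Slc11a1 (chr1:74375195-74386062, plus strand) encodes NRAMP1, the metal transporter of phagosomes that limits growth of engulfed microbes. Its values were 62.1, 33.9 and 208 in testis, 405, 233 and 92.7 in epididymis and 150.3, 22.3 and 197 in brain. Every pair of organs overlapped. Means were 101 ± 93.3, 244 ± 157 and 123 ± 90.6 (SD, n = 3 each), and the limma adjusted p ranged from 0.42 to 0.93. The 2 transporters of the family therefore gave different results, a called difference from brain for Slc11a2 and none for Slc11a1, but the difference between the genes was not tested.

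Per kilobase of annotated exons, which puts genes of unlike length on 1 scale, the mean level was highest for Fth1, then Ftl1, then Trf in each organ. Fth1 stood at 1702 per kilobase in testis, 1679 in epididymis and 645 in brain, and Ftl1 at 1488, 1379 and 448. Within a library, the ratio of Fth1 to Ftl1 per kilobase was 0.933, 0.922 and 1.42 in testis, 1.44, 1.33 and 0.747 in epididymis and 1.15, 1.90 and 1.44 in brain. On this scale Fth1 was the higher in all 3 brain libraries, and the order was mixed in the other organs. The lengths join the exons of all annotated transcripts of a gene, 3469 bases for Fth1 and 1340 for Ftl1. The order of these genes depends on them, since before division by length Fth1 was higher in every library (ratio 1.93 to 4.92). Slc40a1 was the lowest of the 9 in testis (3.22 per kilobase), ranked 7 in epididymis (17.8) and ranked 4 in brain (51.8). Hmox1 was the lowest in brain (4.97) and Tfrc in epididymis (7.22).

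Replicates of an organ differed widely for several members. The SD of log2(value + 1) of Blvrb was 0.08 in epididymis and 3.67 in brain, and that of Slc40a1 was 0.23 in brain and 3.16 in testis. Over all tested genes the median SD was 0.79 in testis, 0.86 in epididymis and 0.59 in brain. After the organ means were taken off, Pearson's r over the 9 libraries was 0.86 for Hmox1 with Blvrb, 0.83 for Fth1 with Trf, 0.82 for Ftl1 with Slc11a1 and 0.80 for Fth1 with Ftl1, and it was -0.69 for Slc40a1 with Slc11a2. Hmox1 and Blvrb both had no read in brain replicate 2, so their r leans on that 1 library. The median over all 36 pairs of members was 0.04. These values share libraries and scaling and are given as a description only.

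For each member called among organs, the genes with the most similar pattern were found by Pearson's r of log2(value + 1) over the 9 libraries, among 6217 genes with a highest organ mean of at least 100. They were Zfp950 (r = 0.99), Amotl1 (0.98) and Vps18 (0.97) for Slc40a1, and Atp5e (0.98), Bcl2a1b (0.97) and Sh3bgrl (0.97) for Ftl1. For Fth1 they were Med11, Tmem106a and Cox20 (0.93 each). For Slc11a2 they were Specc1l (0.96), Crlf2 (0.95) and Ifi203 (0.94), and for Trf they were Scnm1 (0.97), Ano10 (0.95) and the complement gene C1qc (0.94). The highest of so many correlations over 9 libraries are high by selection. The nearest genes to the ferritin subunits were not the same, and neither ferritin gene was among the other's candidates because members were left out.

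The other genes of the pathway were taken from 8 lists with 98 genes, of which 82 were in the table and 73 were tested. Of the 73, 3 were called between testis and epididymis, each lower in testis, 2 were higher and 6 lower in testis than in brain, and 4 were higher and 3 lower in epididymis than in brain. The medians of their log2 differences were 0.08, -0.08 and -0.42, beside 0.10, -0.07 and -0.13 over all tested genes. The share called was 4.11% of the 73 between testis and epididymis, where 4.39% of all tested genes were called, and 8 of the 73 were called between testis and brain, a share near the 11.7% of all tested genes. Between epididymis and brain the share was 9.59%, where 4.79% of all genes were called.

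In iron export and the hepcidin axis, with 2 tested genes, Cp differed between organs. Cp encodes ceruloplasmin, the ferroxidase that loads exported iron onto transferrin. Its values were 215, 33.1 and 123 in testis, 1138, 1195 and 1813 in epididymis and 57.4, 37.9 and 2.67 in brain. Epididymis stood far above both other organs, which overlapped. Cp was higher in epididymis than in brain (log2 6.06, SE 0.88, adjusted p = 0.00071 in limma), a call kept in all 20 alternatives. It was lower in testis than in epididymis (log2 -3.80, SE 0.88, adjusted p = 0.023 in limma), a call kept in 13 of 20, with a largest adjusted p of 0.17, and lost without testis replicate 2 (0.12) or 3 (0.058) or any 1 epididymis library (0.068 to 0.1). The epididymal epithelium sum of 497 to 588 stands in the same libraries, and its part in the Cp level was not tested. Cp and Trf, the ferroxidase and the carrier it loads, thus had their highest values in the same 3 libraries.

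Among 13 tested regulators, Nfe2l2 and Spic were called higher in epididymis than in brain, where 2.99% of all tested genes were. Nfe2l2 encodes Nrf2, an activator of ferritin and heme oxygenase genes. Its mean was 807 ± 149 in testis, 1548 ± 270 in epididymis and 664 ± 79.8 in brain (SD, n = 3 each). It was higher in epididymis than in brain (log2 1.21, SE 0.23, adjusted p = 0.0056 in limma), a call lost in 1 of 20 alternatives, without the variance trend (0.14). It was lower in testis than in epididymis (log2 -0.94, SE 0.23, adjusted p = 0.03 in limma), a call kept in 11 of 20 alternatives with adjusted p up to 0.27. It was lost without testis replicate 1 (0.11) or 3 (0.066), epididymis replicate 2 (0.083) or 3 (0.11), or brain replicate 1 (0.051). Spic, the heme-induced factor of red pulp macrophages, had 43.6, 94.7 and 59.3 in epididymis, 0, 13.7 and 15.4 in testis and no read in any brain library. Taking 3 reads per library as the floor, which covers counting error only, Spic was at least 22.6-fold higher in epididymis than in brain (adjusted p = 0.032 in limma). The Spic call was kept in 11 of 19 alternatives, with adjusted p up to 0.12, and was lost on leaving out any 1 library of epididymis or brain. Mafg, a small Maf partner of Nrf2 and Bach1, was lower in testis than in brain (log2 -1.24, SE 0.35, adjusted p = 0.029 in limma), a call kept in 13 of 20 and lost without testis replicate 1 (0.099) or 2 (0.13) or any 1 brain library (0.055 to 0.15).

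Of the 8 other Nrf2 targets tested, Prdx1 and Sqstm1 were called higher in testis than in brain, where 6.82% of all tested genes were. The median log2 difference of the 8 was -0.87, beside -0.07 over all tested genes. Prdx1, a peroxide-reducing enzyme, averaged 1092 ± 202 in testis, 1149 ± 131 in epididymis and 343 ± 33.0 in brain (SD, n = 3 each). It was higher than in brain in testis (log2 1.66, SE 0.23, adjusted p = 0.00018 in limma) and in epididymis (log2 1.74, SE 0.23, adjusted p = 0.00037 in limma), in all 20 alternatives each. Sqstm1, an autophagy receptor, averaged 1431 ± 166 in testis and 540.5 ± 182 in brain (log2 1.45, SE 0.28, adjusted p = 0.0029 in limma), a call kept in 19 of 20 alternatives and lost without the variance trend (0.082). In the promoter windows of RefSeq on GRCm38.p6, from 250 bases before to 50 after a gene's start, the antioxidant response core TGACNNNGC was searched on both strands. It was in none of 8 windows of 5 members and in 12.4% of 32851 windows in all, which says only that these letters are not in those windows.

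In ferritin turnover, Herc2, a ubiquitin ligase that marks the ferritin cargo receptor NCOA4 for breakdown, differed between organs with no overlap of libraries. Its values were 488, 486 and 495 in testis, 1401, 1201 and 1206 in epididymis and 2195, 2521 and 1541 in brain. It was lower in testis than in epididymis (log2 -1.37, SE 0.22, adjusted p = 0.002 in limma) and than in brain (log2 -2.06, SE 0.22, adjusted p = 1.4e-05 in limma). The first call was kept in 19 of 20 alternatives and lost without the variance trend (0.11), and the second was kept in all 20. The other 3 tested genes of that list were not called in any comparison.

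In heme synthesis, 2 of 9 tested genes were called lower in testis than in brain, Ppox and Uros, and in heme breakdown, uptake and transport 2 of 10, Lrp1 and Abcg2, where 4.83% of all tested genes were lower. Ppox was also called lower in epididymis than in brain, where 1.8% of all tested genes were. Ppox, which oxidises protoporphyrinogen, averaged 205 ± 40.5 in testis, 251 ± 67.1 in epididymis and 638 ± 101 in brain (SD, n = 3 each). It was lower than in brain in testis (log2 -1.64, SE 0.32, adjusted p = 0.003 in limma) and in epididymis (log2 -1.36, SE 0.32, adjusted p = 0.022 in limma). The first call was kept in all 20 alternatives and the second in 13 of 20, being lost without epididymis replicate 2 (0.066) or 3 (0.073) or any 1 brain library (0.062 to 0.11). Lrp1, a receptor for hemopexin-bound heme among many ligands, averaged 769 ± 185 in testis, 1268 ± 48.5 in epididymis and 2124 ± 57.8 in brain, and was lower in testis than in brain (log2 -1.49, SE 0.21, adjusted p = 0.00017 in limma). Abcg2 and Uros lay at the threshold, each at a limma adjusted p that rounds to 0.05, and were kept in 8 of 20 and 6 of 19 alternatives, and in 2 and 1 of the 9 that left out a library. Uros, a synthase of the porphyrin ring, had no read in any testis library and 40.1, 34.6 and 22.2 in brain.

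In iron uptake, reduction and intracellular transport, with 13 tested genes, 1 was called, lower in epididymis than in brain, where 1.8% of all tested genes were. Picalm, a clathrin assembly protein needed for transferrin receptor uptake, differed by -0.95 in log2 (SE 0.18, adjusted p = 0.0049 in limma), a call kept in 19 of 20 alternatives and lost without the variance trend (0.24). The other 12 tested genes of this list were not called in that comparison.

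**Figure D4:**
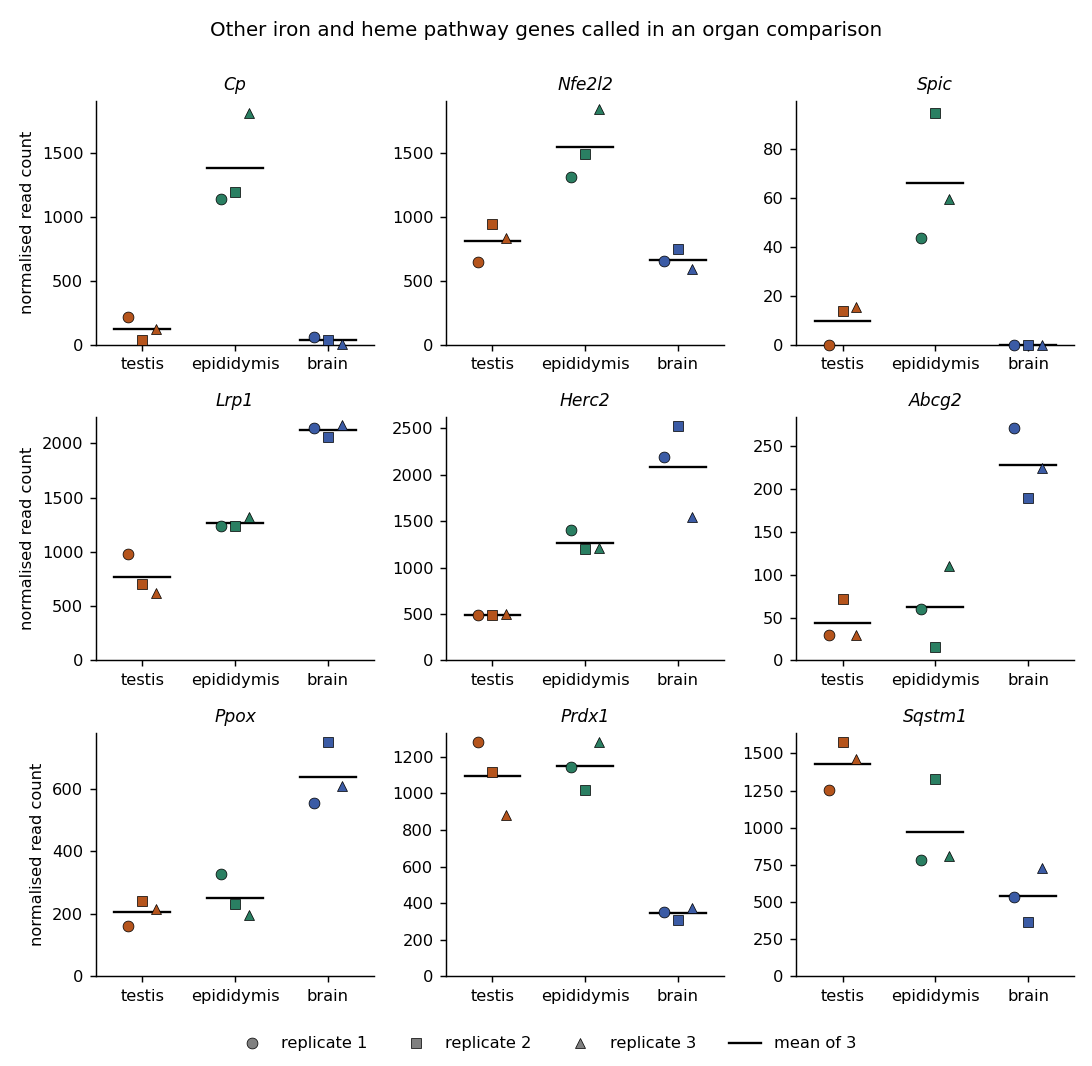
Normalised read counts (vertical axes, from 0) of 9 other pathway genes called in an organ comparison, in each of the 9 libraries, with a line at the mean of 3. Cp, Nfe2l2 and Spic have their 3 highest values in epididymis, and Lrp1, Herc2, Abcg2 and Ppox in brain.

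**Figure D5:**
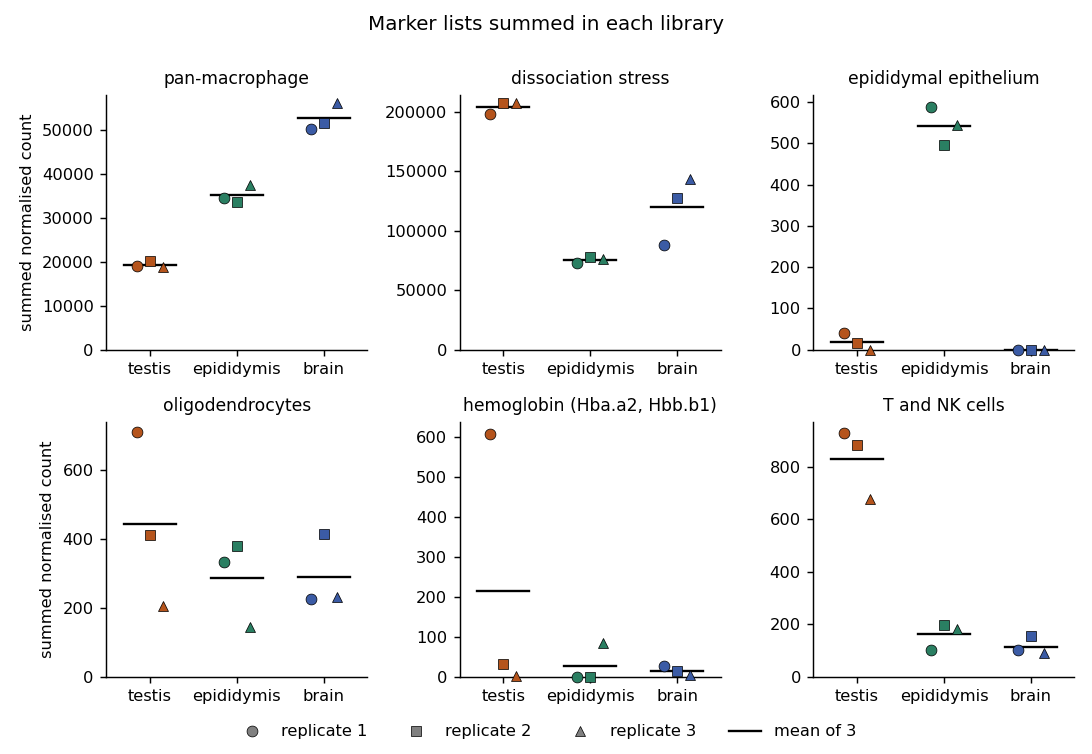
Summed normalised read counts of marker lists in each library (vertical axes, from 0), by organ. The epididymal epithelium list stands at 497 to 588 in epididymis and at 0 in brain, and the hemoglobin genes are highest in testis replicate 1 (608).

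Further marker sums set cell lists beside these results, and of those given here only the T and NK cell list is plotted. T and NK cell genes (8 of 12 in the table) summed to 679 to 930 in testis, 103 to 199 in epididymis and 88.9 to 155 in brain. Monocyte genes (6 of 7) summed to 1343 to 1705 in testis, most of it Ccr2, 139 to 230 in epididymis and 123 to 222 in brain. Genes of spermatids and spermatocytes (9 of 10) summed to 885 to 1941 in testis, 477 to 800 in epididymis and 0.889 to 16.4 in brain. All of these are highest in testis, the organ with the lowest Slc40a1 and Trf, and their part in the member differences was not tested.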

How the data were processed

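Per the submitters' processing notes, the tools were CASAVA 1.8, Bowtie2 2.2.1, Partek 6.6 and DESeq2, with the mm10 genome; their roles, the gene annotation and how reads were counted were not given in the sources used here. The deposited table holds signal values that the authors made as read counts divided by a factor per library. In all libraries 100% of the values were whole multiples of 1 read within 3.9e-10 reads, so whole reads were recovered for count tests. Each of the 9 columns carries a sample number that 1 library title holds, and replicates follow accession order.

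Values were analysed as log2(value + 1) with limma 3.58.1 in R 4.3.3, with a variance trend and 1 mean per organ, for the 11766 genes reaching 10 or more in 3 or more libraries. The fit had 6 residual and 9.08 prior degrees of freedom. The limma fit was run on simulated counts with planted changes in testis, where the check was only that called changes had the planted direction. Power and the rate of false calls were not part of that check. Alternatives were pseudocounts of 0.5 and 10, no filter, a filter of at least 50, no variance trend, only the compared organs, other scalings, edgeR 4.0.16 (quasi-likelihood) and DESeq2 1.42.0 on recovered reads, and each library left out. edgeR estimated a common biological coefficient of variation of 0.913. Leaving out testis replicate 1 with epididymis replicate 3 was chosen after seeing the data.

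The members and lists were chosen with earlier results of these data known. Pathway genes named in the results are those called in a comparison, of which 1 is not reported here, while the 5 under other observations were chosen after their values were seen, and similar genes are the 3 with the highest r per called member. GENCODE M21 on GRCm38 (the same assembly as mm10) gave coordinates and exon lengths.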

Additional observations from a re-analysis of the deposited data

How the results depend on the processing

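With 3 libraries per organ, spread between libraries limited the low genes: Tfrc, Hmox1, Blvrb and Slc40a1 each had a library at 0. Each member and comparison had 20 alternatives, or 19 for Hmox1, which a filter of at least 50 left untested. Of these 537 results, 476 kept direction and side of the threshold, 27 were no longer called, 9 were newly called and 25 changed sign, none of the last being called. Without limma's variance trend 0 members were called in each comparison and in the F test (1, 4, 2 and 4 had an unadjusted p under 0.05, while edgeR called 1, 4, 2 and 4 and DESeq2 1, 3, 2 and 4), and 192, 837 and 306 genes were called between testis and epididymis, testis and brain, and epididymis and brain, and 737 in the F test; the cause was not tested. Between testis and epididymis 250 genes were called with only those organs fitted, 788 in DESeq2 and 198 without the libraries that stood apart, and DESeq2 called 910 between epididymis and brain. In the F test 3 members were called with a pseudocount of 0.5 and 3 without the libraries that stood apart.

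Leaving out 1 library gave 278 to 442 genes between testis and epididymis (lowest without epididymis replicate 2; 301 without testis replicate 2 and 293 without epididymis replicate 3). It gave 827 to 1457 between testis and brain and 320 to 597 between epididymis and brain, both lowest without brain replicate 1 (889 and 327 without brain replicate 2), and 859 to 1302 in the F test, lowest without brain replicate 1. Called members numbered 1 to 1, 1 to 4 (1 without brain replicate 1, 2 without testis replicate 2 or brain replicate 2), 1 to 2 (1 without epididymis replicate 1 or brain replicate 1) and, in the F test, 2 to 4 (2 without brain replicate 1, 3 without testis replicate 2, epididymis replicate 2, brain replicate 2 or brain replicate 3).

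Signs turned only in differences that were not called. Between testis and epididymis the log2 difference of Fth1 became -0.14 with the same total per library, -0.45 after quantile normalisation and -0.06 without the libraries that stood apart, and ranged from -0.39 (without testis replicate 3) to 0.46 over the leave-outs. That of Ftl1 became -0.057 with the same total and -0.055 after quantile normalisation, and ranged from -0.11 (without testis replicate 3) to 0.36. Tfrc became -1.55 and Blvrb -0.034 without the libraries that stood apart. Their leave-outs ranged from -0.60 (without epididymis replicate 3) to 2.96 for Tfrc and from -0.0069 (without testis replicate 1) to 0.30 for Blvrb. The log2 ratio of Fth1 to Ftl1 ranged from -0.38 to 0.10 over the leave-outs, and was above 0 without testis replicate 1 (0.02) or 2 (0.03) and without epididymis replicate 1 (0.10) or 2 (0.04). Between testis and brain Slc11a1 ranged from -1.17 to 0.38 (without brain replicate 3), and Tfrc from -0.58 (without testis replicate 1) to 1.96, with -0.047 after quantile normalisation and -0.58 without the libraries that stood apart. Between epididymis and brain Tfrc became 0.32 in edgeR, 0.36 in DESeq2 and 0.98 without the libraries that stood apart, and ranged from -2.34 to 0.98 (without epididymis replicate 3). No paired analysis was possible because no label ties a library of 1 organ to a library of another, and replicate numbers follow accession order.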

Other observations

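The 5 genes here come from the same lists, were not called in any comparison and were chosen after their values were seen. Slc48a1, the heme transporter of the phagolysosome, ranged from 158 to 462 in testis, 139 to 351 in epididymis and 86.9 to 116 in brain, so that testis and epididymis lay above brain without overlap, with a log2 difference between testis and brain of 1.44 (SE 0.48, adjusted p = 0.065 in limma). Cd163, the receptor for hemoglobin bound to haptoglobin, ranged from 38.0 to 106 in testis, 0 to 16.9 in epididymis and 0 to 4.55 in brain, and testis lay above both other organs without overlap. Its log2 difference between testis and brain was 4.81 (SE 1.57, adjusted p = 0.062 in limma). Hmox2, the constitutive heme oxygenase, ranged from 129 to 241 in testis, 123 to 330 in epididymis and 182 to 208 in brain, and its organs overlapped. Of the iron regulatory proteins, Aco1 ranged from 0 to 58.1 in testis, 4.69 to 69.0 in epididymis and 24.5 to 40.0 in brain. Ireb2 ranged from 56.9 to 144 in testis, 62.5 to 168 in epididymis and 164 to 320 in brain.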
